A study of Mus musculus with 102 samples.

Results

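Epidermal stem cells of adult mice on control diet were compared at zeitgeber time (ZT) 20 against ZT8, time points 12 h apart. The comparison holds 7 arrays, 4 of ZT20 and 3 of ZT8, which are all arrays of these times in that condition and were chosen by their labels alone (age 47 to 57 weeks, control diet, time point). They are 7 of the 23 arrays of adult mice on control diet, in a series with 30, 24 and 25 more from adult calorie restricted, aged control and aged calorie restricted mice. Zeitgeber time counts hours from lights on. The light schedule is not given in the sources used here.

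Every mouse was Per1-Venus BAC transgenic on a C57B6/J background, which adds a fluorescent reporter under control of the clock gene Per1. The control groups ate ad libitum for 25 weeks after a 3 week adaptation, and adult mice were 19 to 29 weeks old at its start. Calorie restricted (CR) groups received 30% less food, and older groups were 83 to 97 weeks old at collection, so that adult control, adult CR, aged control and aged CR were each sampled at 6 times. Epidermal cells were profiled on Affymetrix mouse arrays, 1 sample an array, and levels are log2 values normalised by the authors with RMA. How the stem cells were isolated, and which mouse gave which array, is not given in the sources used here, so the tests measure the spread between these arrays.

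The molecular clock is a loop of transcription factors. The activators ARNTL and CLOCK (or its relative NPAS2) bind E-boxes and switch on their own repressors, the PER and CRY proteins, as well as the nuclear receptors NR1D1 and NR1D2, which repress Arntl, and the PAR bZIP factors DBP, TEF and HLF, which carry the rhythm to output genes through D-boxes. In the epidermis this loop runs in the basal layer, where DNA synthesis and cell division of the dividing cells also follow the time of day.

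The mean correlation of each array with the others of the condition was 0.961 to 0.965 at ZT8 and 0.967 to 0.971 at ZT20. The medians of the 7 arrays lay between 5.56 and 5.61. Their background level reached 3.92 at ZT8, on replicate 1, and 3.88 at ZT20. The median SD over genes was 0.20 at ZT8 and 0.12 at ZT20. The 4 arrays of ZT0 correlated at 0.873 to 0.956. They enter the test of ZT20 against ZT8 only through the estimate of the spread, and enter the daily courses directly. Markers of basal keratinocytes fitted the label of the cells, with 13 of the 14 measured above the 90th percentile of all probe sets, while the 11 markers of the hair follicle bulge were spread widely (median percentile 50.9), from Cd34 at 5.5 and Lgr5 at 11.9 to Cxcl14 at 99.0. Suprabasal markers were mixed, with 6 of 15 above the 90th percentile, among them Krt1 and Krt10. The sex of the mice is not given in the labels. Xist exceeded Y-linked genes on 2 of 4 ZT20 and 2 of 3 ZT8 arrays.

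Few genes passed the test between the times, and clock genes were prominent among them. Of 13383 genes tested, 11 (0.0822%) passed a Benjamini-Hochberg adjusted p of 0.05 in limma, 5 higher at ZT20 (0.0374%) and 6 lower (0.0448%). The genes lower at ZT20 were the clock genes Dbp, Per3, Nr1d2 and Tef, together with Sphk2 and Nrg4. The genes higher at ZT20 were Fkbp5, Cd59a and 3 genes known from dividing cells, Cdca5, Incenp and Iqgap3. None of the 11 had overlapping groups. Over all genes, the groups did not overlap with ZT20 above for 1342 genes (10.0%) and with ZT20 below for 706 (5.28%), and an unadjusted p under 0.05 was reached by 899 genes (6.72%), 620 higher (4.63%) and 279 lower (2.08%) at ZT20. The median difference over all genes was 0.05, with a median standard error (SE) of 0.20, so that a typical 95% confidence interval reached 0.42 to either side.

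**Figure D1:**
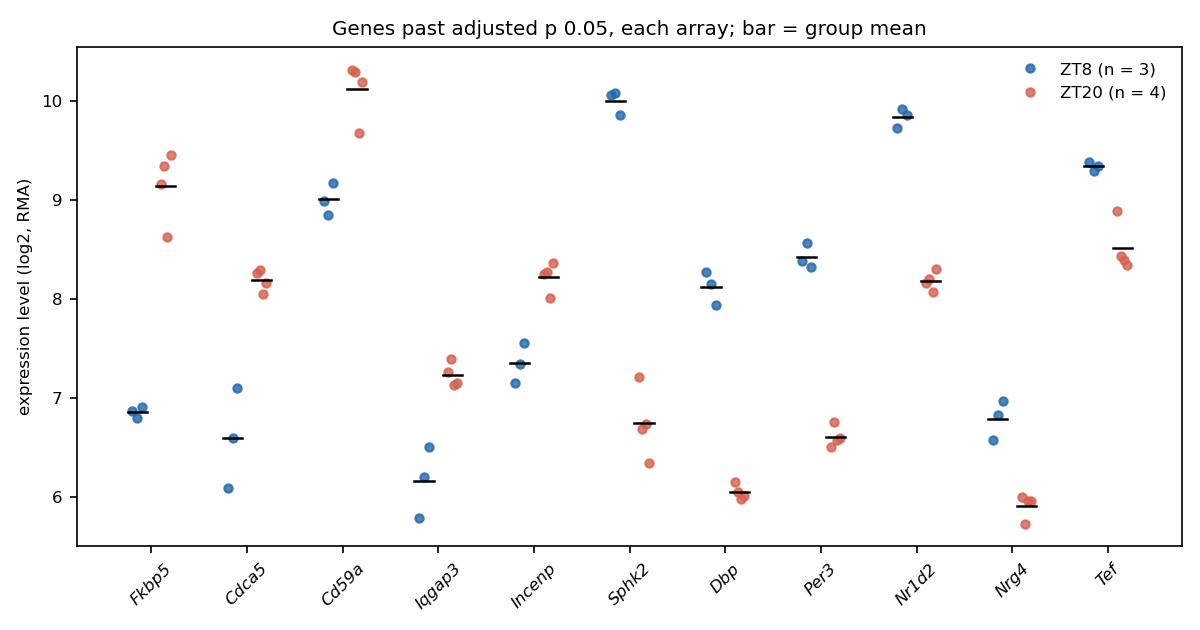
Log2 RMA level of the 11 genes past the threshold on each array of ZT8 (blue, n = 3) and ZT20 (red, n = 4) in adult mice on control diet, bars marking group means. The 5 genes on the left are higher and the 6 on the right lower at ZT20, and no gene has overlapping groups, the Sphk2 levels lying between 9.86 and 10.08 at ZT8 and between 6.35 and 7.21 at ZT20.

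Among the repressors of the clock, Per3 and Nr1d2 were lower at ZT20. Per3, a period protein, measured 8.38, 8.57 and 8.32 on the ZT8 arrays and 6.51, 6.76, 6.58 and 6.59 on the ZT20 arrays. It fell by 1.81 ± 0.30 (SE) on the log2 scale, with ZT8 3.51-fold above ZT20 (limma adjusted p = 0.0106). Nr1d2, a nuclear receptor that represses Arntl, measured 9.73, 9.92 and 9.86 at ZT8 against 8.16, 8.21, 8.07 and 8.30 at ZT20. The arrays of each time lay within a narrow band for both genes and the bands were far apart, the Nr1d2 difference being -1.65 ± 0.20 (adjusted p = 0.000247).

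The other repressors were measured with less certainty. Per2, a period protein as well, gave 7.07, 7.42 and 7.07 at ZT8 and 6.39, 6.43, 6.49 and 6.50 at ZT20, a difference of -0.73 ± 0.18 that did not pass (adjusted p = 0.158). Its groups were separate, as were those of Ciart, a repressor of the activator pair (-0.51 ± 0.18), and of the cryptochrome Cry2 (-0.59 ± 0.26). Cry1, the other cryptochrome, ran the other way, with 5.30, 6.14 and 5.79 at ZT8 and 6.62, 6.23, 7.14 and 6.59 at ZT20, again without overlap (0.90 ± 0.34, adjusted p = 0.56). Bhlhe40, which competes for E-boxes, had overlapping groups (-0.42 ± 0.24). Per1 differed by 0.08 ± 0.34, with an interval from -0.62 to 0.78. The Per1 probe set was read in mice that also carry the Per1-Venus transgene, and its part in the level was not tested. Of the 10 repressors listed, Nr1d1 and Bhlhe41 were not tested, having no probe set with a single symbol above the filter. In all, 2 of the 8 repressors tested passed, both lower at ZT20, and the list's median difference was -0.55.

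Of the PAR bZIP outputs, Dbp and Tef were lower at ZT20 too. Dbp measured 8.28, 8.15 and 7.95 at ZT8 and 6.16, 6.05, 5.98 and 6.01 at ZT20, a 4.22-fold lower level at the later time (-2.08 ± 0.31, adjusted p = 0.00295). Tef stood at 9.39, 9.30 and 9.34 at ZT8 and at 8.89, 8.43, 8.40 and 8.34 at ZT20, so that ZT20 replicate 1 was the nearest to the ZT8 level. The Tef difference was -0.83 ± 0.14 (adjusted p = 0.0151). Hlf, the other activator of D-boxes, had separate groups but did not pass (-0.57 ± 0.25, adjusted p = 0.662), and Nfil3, the repressor that competes for the same element, differed by 0.17 ± 0.25. With 2 of 4 members past the threshold, both lower, the list's median was -0.70.

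No activator of the clock passed. Npas2 came nearest, at 7.67, 7.26 and 7.27 at ZT8 and 8.03, 8.01, 8.08 and 7.98 at ZT20, with separate groups and a difference of 0.62 ± 0.15 (adjusted p = 0.16). Its second probe set gave a larger difference of 1.97 ± 0.43, and the gene passed in 3 of 20 alternatives, among them the mean of both sets (1.29 ± 0.23, adjusted p = 0.0243). Arntl, the central activator, measured 7.61, 8.41 and 8.49 at ZT8 against 8.31, 8.81, 9.03 and 9.18 at ZT20. Its groups overlapped because the lowest ZT20 array lay under the upper ZT8 arrays, and the difference of 0.66 ± 0.42 had an interval from -0.21 to 1.53. A second, dimmer Arntl probe set gave 0.91 ± 0.22, which did not pass either (limma adjusted p = 0.124 over all probe sets). Clock and Rora, an activator of Arntl, differed by 0.02 ± 0.24 and -0.18 ± 0.17. The direction of Clock was not stable, being negative when the mean of its probe sets was used (-0.05). Of 7 further genes known as clock outputs 0 passed in limma and 1 had an unadjusted p under 0.05, the water and glycerol channel Aqp3 (-0.44 ± 0.18, adjusted p = 0.644). Of all genes, 2.08% had such a p with the lower level at ZT20.

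Letter strings of elements that clock factors bind were looked for in the start regions of these genes. RefSeq start windows (GRCm38.p6) were found for 14 of the 16 clock genes tested, and the 250 bases before each start were searched on both strands for the E-box CACGTG, the D-box TTATGTAA and the core AGGTCA of the element bound by ROR and NR1D proteins (RORE). Over all 32851 windows of that length, 6.02% held the E-box, 0.819% the D-box and 14.0% the RORE core. Of the 14 clock genes, 4 had an E-box, 1 a D-box and 4 a RORE core in at least 1 window. These genes had 19 windows, and the shares over all windows are per window and not per gene. The windows of 3 genes past the threshold are printed 5′ to 3′ on the strand of the gene, up to the first annotated base of the gene, because each holds another of the 3 elements (in capitals). They are Per3 at chr4:151044708-151044915 on the minus strand with D-boxes beginning 163 and 116 bases before that base, Nr1d2 at chr14:18239107-18239356 on the minus strand with a RORE core 77 bases before it, and Tef at chr15:81802423-81802672 on the plus strand with an E-box 127 bases before it.
Per3: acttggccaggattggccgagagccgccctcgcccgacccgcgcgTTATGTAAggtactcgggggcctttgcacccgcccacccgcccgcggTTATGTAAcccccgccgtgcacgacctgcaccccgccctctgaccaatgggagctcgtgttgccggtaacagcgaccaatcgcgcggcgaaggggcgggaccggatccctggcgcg
Nr1d2: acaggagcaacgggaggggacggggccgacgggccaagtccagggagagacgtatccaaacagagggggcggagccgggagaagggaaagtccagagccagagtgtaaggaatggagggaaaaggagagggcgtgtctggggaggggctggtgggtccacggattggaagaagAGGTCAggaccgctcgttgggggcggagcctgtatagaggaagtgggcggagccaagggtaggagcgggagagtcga
Tef: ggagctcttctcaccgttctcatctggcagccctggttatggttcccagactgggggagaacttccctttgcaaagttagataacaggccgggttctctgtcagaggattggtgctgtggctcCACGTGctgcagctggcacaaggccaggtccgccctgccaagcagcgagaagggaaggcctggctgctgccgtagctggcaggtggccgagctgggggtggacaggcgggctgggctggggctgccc
The window of Dbp held none of the 3 letter strings, and those of Per3 and Nr1d2 held no E-box. A match describes letters only, and binding was not measured.

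Sphk2, an enzyme that makes the lipid signal sphingosine 1-phosphate, showed the largest difference of the 13383 genes tested. It measured 10.06, 10.08 and 9.86 at ZT8 and 7.21, 6.69, 6.74 and 6.35 at ZT20, which is 9.52-fold lower (-3.25 ± 0.32, adjusted p = 1.55e-05). A second Sphk2 probe set did not show this, with 0.52 ± 0.44 (adjusted p = 0.905 over all probe sets), and with the mean of both sets the gene did not pass (-1.37 ± 0.28, adjusted p = 0.0524). Sphk2 (chr7:45709463-45718002, minus strand) and Dbp (chr7:45705100-45710203, plus strand) face each other in GRCm38.p6, and their annotated 3′ ends overlap by 741 bases. The part of each transcript in the other's signal was not tested. Nrg4, a growth factor of the neuregulin family that binds ERBB4, measured 6.58, 6.83 and 6.97 at ZT8 and 6.01, 5.73, 5.96 and 5.97 at ZT20. Its difference, -0.87 ± 0.17, was the closest to the threshold of the 11 (adjusted p = 0.0496).

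Other genes past the threshold were read by more than 1 probe set. Over all probe sets, both of Nr1d2 passed (-1.65 and -2.06), all 5 of Per3 had the same sign and 2 passed (-1.81 and -0.95, the others lying between -0.67 and -0.25), and both of Tef had the same sign (-0.83 and -1.36). With the mean of its probe sets Per3 still passed, at -0.86 ± 0.14 (adjusted p = 0.00945). The second sets of Cdca5 and Cd59a gave 1.11 ± 0.27 and 1.03 ± 0.34, and that of Iqgap3 only 0.22 ± 0.20. Of the 3 for Fkbp5 2 passed (2.29 and 2.06) and the remaining dim set differed by -0.03, and of the 3 for Incenp the dimmest had the opposite sign (-0.12 ± 0.21). Dbp and Nrg4 had 1 probe set each.

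**Figure D2:**
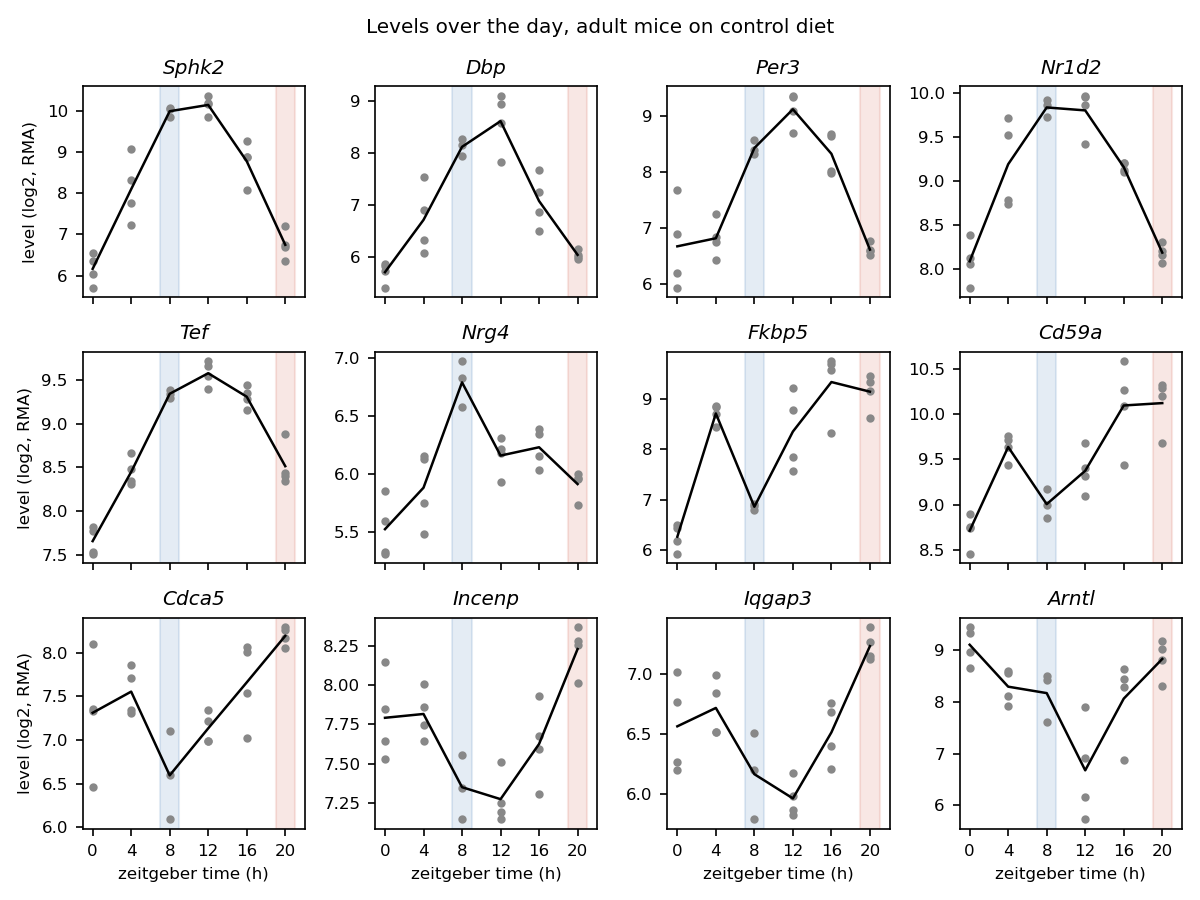
Log2 RMA level of the 11 genes past the threshold and of Arntl over the day in adult mice on control diet, 1 point an array and the line joining the means of each zeitgeber time (3 or 4 arrays), with ZT8 shaded blue and ZT20 red. Dbp, Sphk2, Per3 and Tef have their highest mean at ZT12, Cdca5, Iqgap3, Incenp and Cd59a at ZT20, and Fkbp5 has high means at ZT4 and from ZT12 to ZT20.

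The 2 times sit at different places in the daily course of these genes. Sphk2, Dbp, Per3 and Tef had their highest mean at ZT12, 4 h after ZT8, and Nr1d2 and Nrg4 at ZT8 itself. Dbp ran through 5.72, 6.72, 8.13, 8.62, 7.08 and 6.05 from ZT0 to ZT20 in 4 h steps, and Sphk2 through 6.16, 8.10, 10.00, 10.15, 8.78 and 6.75. The order of the 6 times from high to low was the same for both. Per3 was the only one of the 6 lower genes with its lowest mean at ZT20 (6.61 ± 0.11 (SD, n = 4), against 6.67 ± 0.78 at ZT0), and the other 5 were lowest at ZT0. The ZT0 arrays were the least alike of the condition, with correlations of 0.873 to 0.956. Their median SD over genes was 0.36, against 0.12 at ZT20. The part of array quality in the ZT0 levels, here and below, was not tested.

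The genes higher at ZT20 had other courses. Cdca5, Incenp, Iqgap3 and Cd59a had their highest mean at ZT20, and Cdca5 its lowest at ZT8. Fkbp5 was lowest at ZT0 (6.26) and low at ZT8 (6.86), but stood at 8.71 at ZT4 between them, so its ZT8 mean is a dip within the day and not its lowest mean. Cd59a had a like shape, with 8.72 at ZT0, 9.64 at ZT4, 9.01 at ZT8 and 10.12 at ZT20.

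Fkbp5, a co-chaperone that limits glucocorticoid receptor activity and is itself a standard target of that receptor, was the gene most raised at ZT20. Its ZT8 arrays read 6.87, 6.80 and 6.91, and its ZT20 arrays 9.16, 9.35, 8.62 and 9.45. The ZT8 arrays were nearly alike, ZT20 replicate 3 was the lowest of its group, and the groups were far apart. The level was 4.88-fold higher at ZT20 (2.29 ± 0.33, adjusted p = 0.00295). Of 10 glucocorticoid target genes tested, Fkbp5 alone passed. Tsc22d3, which encodes the anti-inflammatory protein GILZ, measured 9.10, 9.01 and 9.24 at ZT8 and 9.94, 10.39, 9.76 and 10.36 at ZT20 (1.00 ± 0.38, adjusted p = 0.581). The zinc finger factor Zbtb16 likewise had separate groups (1.05 ± 0.47, adjusted p = 0.67). The other members lay between -0.19 and 0.13, among them Nfkbia (-0.19 ± 0.15), the inhibitor of NF-kappa-B, so the list's median difference was 0.02, close to that of all genes. An unadjusted p under 0.05 was reached by 3 of the 10, all higher at ZT20, against 4.63% of all genes. In 4 the groups were separate with ZT20 above and in 0 with ZT20 below, against 10.0% and 5.28% of all genes.

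Cd59a, a membrane protein that shields cells from complement, measured 8.996, 8.85 and 9.17 at ZT8 and 10.32, 10.29, 9.68 and 10.19 at ZT20. ZT20 replicate 3 was again the lowest of its group but stayed above every ZT8 array, and the difference was 1.11 ± 0.21 (adjusted p = 0.0338).

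Cdca5, Incenp and Iqgap3, known from dividing cells and in none of the lists, were higher at ZT20. Cdca5, or sororin, which holds sister chromatids together until anaphase, measured 6.09, 6.60 and 7.10 at ZT8 and 8.27, 8.29, 8.05 and 8.16 at ZT20 (1.60 ± 0.29, 3.03-fold higher, adjusted p = 0.0338). Incenp, the scaffold of the chromosomal passenger complex, read 7.15, 7.35 and 7.56 against 8.25, 8.28, 8.02 and 8.37 (0.88 ± 0.16, adjusted p = 0.0338). Iqgap3, a scaffold protein found in proliferating cells, read 5.79, 6.20 and 6.51 against 7.27, 7.39, 7.13 and 7.15 (1.07 ± 0.20, adjusted p = 0.0338). In each of the 3 genes the ZT8 arrays were spread more widely than the ZT20 arrays, replicate 1 being lowest and replicate 3 highest. All 3 lost their call when arrays were centred on their medians and in 6 of the 7 fits that left out 1 array, with adjusted p up to 0.237. Iqgap3 passed also with the mean of its probe sets, at a smaller 0.64, and Incenp did not (0.48).

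The list of 28 mitosis genes was tested for 27 members. None passed the adjusted threshold in limma. An unadjusted p under 0.05 was reached by 14, all 14 with the higher level at ZT20, where 4.63% of all genes did so, and 13 had separate groups with ZT20 above, against 10.0% of all genes. The count of 14 fell to 7 without ZT8 replicate 1 and to 9 without ZT8 replicate 2. The median difference was 0.39 against 0.05 over all genes. Aurkb, the kinase of the complex that Incenp scaffolds, gave 8.11, 7.11 and 8.15 at ZT8 and 9.57, 9.78, 9.40 and 9.66 at ZT20 (1.81 ± 0.36, adjusted p = 0.057). Kif11, the motor that separates the spindle poles, gave 6.80, 7.38 and 7.69 against 8.40, 8.46, 8.34 and 8.59 (1.16 ± 0.24, adjusted p = 0.067). The other members of that complex, Birc5 and Cdca8, named after their values were seen, differed by 0.56 ± 0.31 and 0.78 ± 0.37. The spindle midzone protein Prc1 (0.66 ± 0.18) and the checkpoint protein Mad2l1 (0.59 ± 0.17) had separate groups too. Among the 20 alternatives Aurkb passed in 6, Kif11 in 4, Prc1 in 3 and Mad2l1 in 0. Not every member was on that side. Kif23, a midbody motor that was picked after its value was seen, had separate groups with ZT20 below (-0.53 ± 0.32).

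Averaged over the 27 genes, the ZT8 arrays read 7.13, 7.28 and 7.57 and the ZT20 arrays 7.84, 7.87, 7.70 and 7.70. The groups did not overlap, though ZT8 replicate 3 came close to the lower ZT20 arrays. Over the day the list's mean was 7.38 at ZT0, 7.74 at ZT4, 7.32 at ZT8, 7.06 at ZT12, 7.16 at ZT16 and 7.78 at ZT20. In bulk RNA, more cells of a kind and more RNA per cell cannot be told apart.

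**Figure D3:**
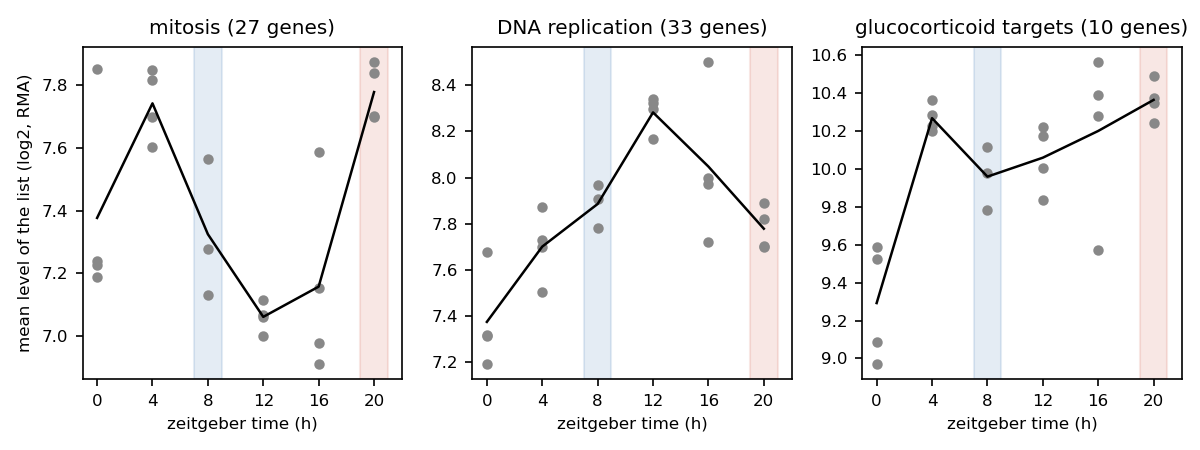
Mean log2 RMA level of the tested members of 3 gene lists on each of the 23 arrays of adult mice on control diet, against zeitgeber time, the line joining the group means and shading marking ZT8 and ZT20. The mitosis list is highest at ZT20 (7.78) and ZT4 (7.74), the DNA replication list at ZT12 (8.28), and the glucocorticoid target list at ZT20 (10.36), with its lowest mean at ZT0 (9.29) and 9.96 at ZT8.

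DNA replication genes did not share this direction. Of 36 listed genes 33 were tested and 0 passed in limma. An unadjusted p under 0.05 was reached by 2 with the higher and 4 with the lower level at ZT20. Of all genes, 4.63% reached it with the higher and 2.08% with the lower level. Those with the lower level were 3 subunits of the MCM helicase that unwinds DNA, Mcm4 (-0.72 ± 0.22, adjusted p = 0.416), Mcm6 (-0.68 ± 0.22) and Mcm2 (-0.72 ± 0.27), and the helicase cofactor Gins2 (-0.59 ± 0.25), named after its value was seen. Mcm4 gave 7.80, 8.28 and 8.12 at ZT8 and 7.25, 7.26, 7.51 and 7.35 at ZT20, without overlap. Rrm2, the small subunit of ribonucleotide reductase, had the opposite sign (0.62 ± 0.24), as did Mcm10, named in the same way (0.31 ± 0.13). The groups were separate with ZT20 below in 9 of the 33 genes, where 5.28% of all genes were, and with ZT20 above in 3, where 10.0% were. The list's median was -0.07, and its mean over the day was highest at ZT12 (8.28) and lowest at ZT0 (7.37), with 7.89 at ZT8 and 7.78 at ZT20.

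Genes of the G1 phase included the gene just outside the threshold. Ccnd1, the cyclin that starts passage through G1, measured 11.22, 11.12 and 11.25 at ZT8 and 10.60, 10.57, 10.56 and 10.65 at ZT20. The arrays of each time lay close together and apart from the other time, with a difference of -0.60 ± 0.12 (adjusted p = 0.0541). Ccnd2, a related cyclin, gave 12.12, 11.85 and 11.86 against 11.03, 11.23, 10.88 and 11.14 (-0.87 ± 0.20, adjusted p = 0.143). E2f2, a transcription factor of the cell cycle, had the higher level at ZT20 (0.65 ± 0.26). Of the 17 G1 genes tested 0 passed in limma. These 3 had an unadjusted p under 0.05, 1 higher and 2 lower at ZT20, against 4.63% and 2.08% of all genes. When all probe sets were tested, Ccnd1 (limma adjusted p = 0.0193) and both sets of Ccnd2 (0.0231 and 0.0294) passed. Among the 20 alternatives Ccnd1 passed in 8 and Ccnd2 in 6. Among 19 DNA repair genes 0 passed and 2 had an unadjusted p under 0.05, Ung, which removes uracil from DNA (-0.999 ± 0.422), and the checkpoint kinase Chek1 (-0.50 ± 0.22). Both were lower at ZT20, as were 2.08% of all genes at that p.

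**Figure D4:**
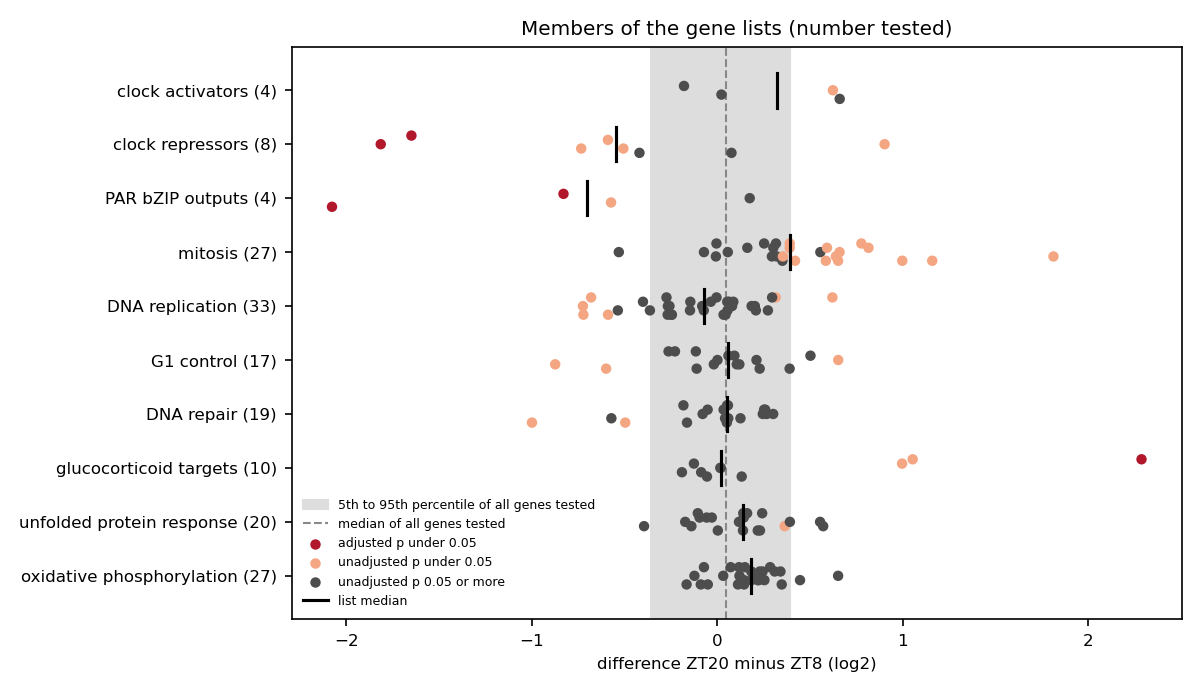
Log2 difference of ZT20 minus ZT8 in adult mice on control diet for the tested members of 10 gene lists (1 point a gene, number tested in brackets), coloured by limma p, with the list median as a black bar and the 5th to 95th percentile of all 13383 genes in grey (-0.36 to 0.39). Mitosis genes lie mainly right of the median of all genes (list median 0.39), clock repressors and PAR bZIP outputs mainly left (-0.55 and -0.70).

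Genes of signals between epidermal cells were tested as well, and none passed. In the Notch list, 2 of 10 genes had an unadjusted p under 0.05, both with ZT20 lower, against 2.08% of all genes. Notch1, the receptor that drives differentiation of keratinocytes, measured 10.88, 10.87 and 10.94 at ZT8 and 10.06, 10.40, 10.15 and 10.29 at ZT20, without overlap (-0.67 ± 0.17, adjusted p = 0.16). Its ligands Jag1 (-0.45 ± 0.20) and Dll1 (-0.38 ± 0.19) had separate groups with the same sign, and the list's median was -0.17. In all, 3 of the 10 had separate groups with ZT20 below and 0 with ZT20 above, against 5.28% and 10.0% of all genes. Among 9 Wnt genes, 3 had separate groups with ZT20 below and 1 with ZT20 above, against the same shares of all genes. The ligands Wnt3 (-0.79 ± 0.22, limma adjusted p = 0.277) and Wnt4 (-0.58 ± 0.27) were among the 3. Sp5, a target of the pathway, was the 1 with ZT20 above (0.29 ± 0.13). The EGF receptor ligand Tgfa differed by -0.46 ± 0.20.

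No gene of the metabolic lists passed. Of 27 genes of oxidative phosphorylation, 22 had a positive sign (81.5%, against 59.0% of all genes) and 8 had separate groups with ZT20 above (10.0% of all genes did), the median being 0.18, but 0 had an unadjusted p under 0.05. The largest was Sdhd, a subunit of succinate dehydrogenase (0.65 ± 0.34). In the unfolded protein response 7 of 20 genes had separate groups with ZT20 above, against 10.0% of all genes, among them Calr (0.57 ± 0.28), a chaperone of the endoplasmic reticulum, and the median was 0.14. Pdia6, which forms disulfide bonds, was on that side with its brightest probe set (0.36 ± 0.16) but not with the mean of its probe sets (-0.11). Of 17 antioxidant genes, catalase (Cat) had the higher level at ZT20 (0.48 ± 0.22), while the glutathione enzyme Gclc had the lower one (-0.62 ± 0.30, both not past). Heat shock, glycolysis, cholesterol, fatty acid, innate immunity and tight junction lists held 0 genes past the threshold in limma. In all, 3 of the 29 pathway lists held a gene past it, and 6 of the 11 genes were in no list.

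Marker lists of cell types were set beside these results. The summed linear level of the 8 fibroblast markers was 465 to 612 on the ZT8 arrays and 627 to 822 on the ZT20 arrays, without overlap. Pdgfra, Lum and Col1a2 lay below the 30th percentile of all probe sets, and the member of smallest p was Thy1 (0.68 ± 0.29, overlapping groups), which T cells express too. Thy1 was also the brightest of the 8 (mean level 8.59), so it weighs most in the summed linear level. The 14 basal keratinocyte markers summed to 38060 to 41870 at ZT8 and 36420 to 37930 at ZT20, with the integrin Itga3 the member of smallest p (-0.51 ± 0.18, adjusted p = 0.519). The other 11 of the 13 lists overlapped. Of single genes, 10.0% had separate groups with ZT20 above and 5.28% with ZT20 below. The 2 lists without overlap are therefore not read as a change of cell types. The part of cell types in the differences was not tested.

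The same comparison was made in the other conditions, which share no array with this one, to see whether the differences belonged to adult mice on control diet. In a limma model of all arrays of the series with 24 group means, adult control gave 40 genes past the threshold (0.299%), adult CR 87 (0.650%), aged control 20 (0.149%) and aged CR 43 (0.321%). In that order, they rest on 4, 5, 5 and 5 arrays of ZT20 against 3, 4, 3 and 4 of ZT8. The counts are therefore not on equal terms. Of the 11 genes, all 11 had the same sign in adult CR and in aged control and 9 in aged CR, and 6, 5 and 5 of them passed there. Sphk2, Dbp, Per3 and Nr1d2 passed in every condition. On the aged control ZT20 arrays Sphk2 ran from 6.53 to 9.59, Dbp from 5.67 to 8.16 and Per3 from 6.23 to 8.79. The lowest ZT8 arrays there read 9.84, 8.13 and 7.96. The SDs at ZT20 were 1.28, 0.98 and 1.03, against 0.36, 0.08 and 0.11 in adult control. The part of this spread in the differences was not tested. Nr1d2 was the steadiest, with -1.65 ± 0.23 for adult control, -1.56 ± 0.22 for aged control, and -1.94 ± 0.20 and -1.92 ± 0.20 for the CR groups of adult and aged mice. Dbp was lowest relative to ZT8 in adult CR (-3.56 ± 0.29), against -2.08 ± 0.34 in adult control, but the difference between them did not pass (-1.48 ± 0.45, unadjusted 95% interval -2.37 to -0.59).

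Tests of the difference between conditions passed for few genes. Between adult CR and adult control 0 genes passed in limma, with 512 (3.83%) at an unadjusted p under 0.05, and between aged and adult control 0 passed, with 136 (1.02%). Between aged CR and adult control 2 passed (0.0149%), Fkbp5 and Per2, with 440 (3.29%) at an unadjusted p under 0.05. Fkbp5 was not higher at ZT20 in aged CR, where its mean was 9.55 ± 0.26 (SD, n = 4) at ZT8 and 9.05 ± 0.57 (SD, n = 5) at ZT20. Its difference was thus -0.51 ± 0.35 there and 2.29 ± 0.40 in adult control, a gap of -2.79 ± 0.53 (adjusted p = 0.00671). The ZT20 means of Fkbp5 in the 4 conditions were close, from 8.73 to 9.15, while the ZT8 means ran from 6.86 in adult control over 7.82 in aged control and 8.38 in adult CR to 9.55 in aged CR.

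Per2 also had a higher ZT8 mean in aged CR than in adult control. Its ZT20 minus ZT8 difference was -0.73 ± 0.20 in adult control and -2.20 ± 0.18 in aged CR, and the gap of -1.46 ± 0.27 passed (adjusted p = 0.00671). The Per2 level at ZT8 was 7.19 ± 0.20 (SD, n = 3) in adult control and 8.27 ± 0.30 (SD, n = 4) in aged CR, and at ZT20 6.45 ± 0.05 (SD, n = 4) and 6.08 ± 0.22 (SD, n = 5). Cd59a came next, with 1.11 ± 0.19 in adult control against -0.05 ± 0.17 in aged CR (gap -1.16 ± 0.25, adjusted p = 0.0807). Cdca5, Incenp and Iqgap3 were positive in all 4 conditions, with Cdca5 at 1.60 ± 0.32 in adult control and 1.10 ± 0.28 in adult CR (adjusted p = 0.0409), and at 0.60 ± 0.31 and 0.69 ± 0.28 in aged mice on control diet and on CR. Their differences from adult control did not pass.

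The other genes of smallest p in the tests between conditions did not pass. Between adult CR and adult control, after Cd59a and Per2, these were Ccnq, Plin3, Sectm1b and Hes6, with gaps between -1.44 and -0.68. Between aged and adult control they were Wnt2 (-1.02 ± 0.28), Rgcc (2.04 ± 0.56), D17H6S56E-5, Ablim1 (1.25 ± 0.37), Defa3 and Rrad. Between aged CR and adult control they were Slc43a1, an amino acid transporter (-2.01 ± 0.47), the glucocorticoid target Tsc22d3 (-1.68 ± 0.41) and Tef (-0.86 ± 0.22).

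**Figure D5:**
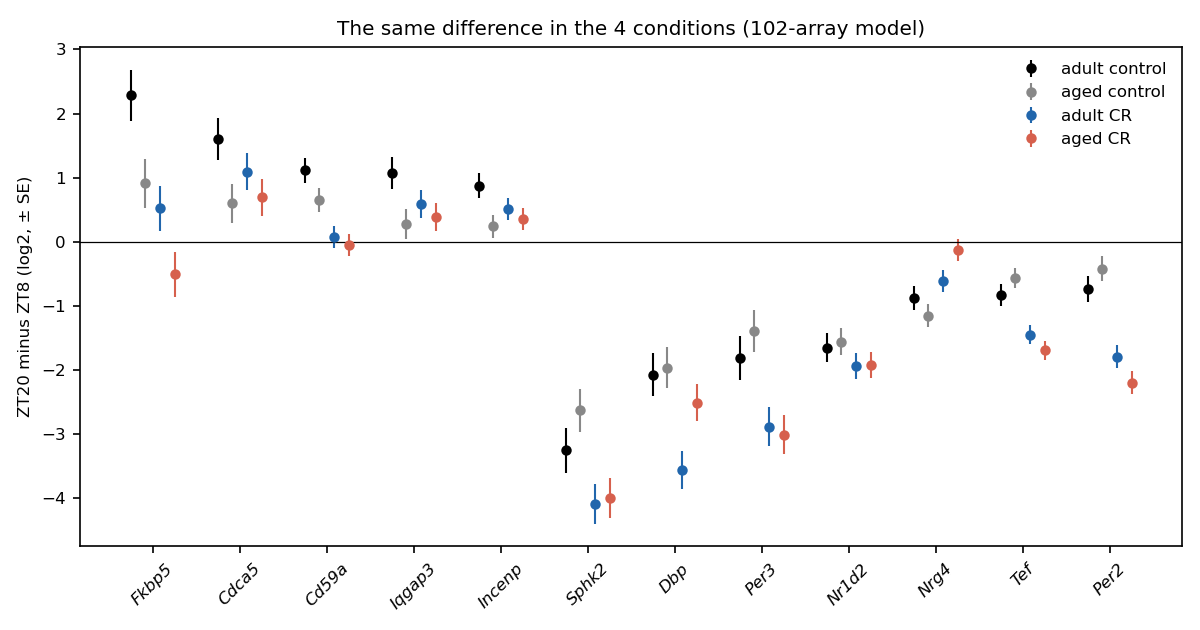
Log2 difference of ZT20 minus ZT8 with its SE, from the limma model of all arrays of the series, for the 11 genes past the threshold in adult control and for Per2, in 4 conditions: adult control (black), aged control (grey), adult CR (blue) and aged CR (red). Fkbp5 is at 2.29 in adult control and at -0.51 in aged CR, Per2 at -0.73 and at -2.20, and Nr1d2 lies between -1.94 and -1.56 in all 4 conditions.

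How many genes passed depended on the setting: 49 passed with the 7 arrays alone and 29 without the ZT0 arrays, all 11 among them both times, and 6 after each array was centred on its median (1 higher and 5 lower, against 5 and 6). With 1 of the 7 arrays left out, 4 to 8 genes passed; Sphk2, Dbp, Nr1d2 and Fkbp5 passed each time, Per3 failed without ZT8 replicate 2 (adjusted p = 0.12), and the other 6 failed in at least 6 of the 7. Mice killed on a day all belonged to 1 time point, per the labels, so day and time cannot be told apart.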

How the data were processed

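Total RNA (25 ng an array) was extracted with TRIzol and amplified over 17 cycles, and 8 µg of labelled cDNA was hybridised to Affymetrix mouse PM arrays, per the labels' protocols. The authors deposited log2 values normalised with RMA, per the submitters' processing notes. RMA sets the arrays to 1 distribution, so levels are relative and a shift of all genes would not show. Arrays give no read depth, and their number limits the precision.

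Of 45140 probe sets, 28898 had 1 gene symbol in GEO's platform annotation, 551 several and 15691 none. The brightest set of a gene over all arrays stood for it (17097 genes). Genes under the 30th percentile of mean level (4.73) were left out, leaving 13383. limma 3.58.1 in R 4.3.3 fitted the 23 arrays of adult control mice with 6 time means (17 residual degrees of freedom), with Benjamini-Hochberg adjustment over all genes tested. Conditions were compared in 1 model of all arrays with 24 means. The fit was checked on simulated data. No 2 arrays were identical.

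The lists (576 genes in 42 lists, 471 tested) and the comparison itself were chosen with earlier results of these data known. Genes named are all those past the threshold (up to 12 in each direction), all clock activators, repressors and PAR bZIP genes, the 4 members of smallest p in other lists, and the 6 of smallest p in each test between conditions. Other genes are marked as chosen after their values were seen, except cell type markers named for their level. Alternatives covered the arrays fitted, the probe set of a gene, the filter, array centring, weights and background, variance estimation, sex markers, the replicate number as a block, and leaving out each array. Start regions and coordinates are RefSeq's, GRCm38.p6. Levels were not compared between genes.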

Additional observations from a re-analysis of the deposited data

Results flagged for a closer look

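Fkbp5 differed between conditions. Its ZT20 minus ZT8 difference was 2.29 in adult control and -0.51 in aged CR mice on the log2 scale, a gap of -2.79 ± 0.53 (SE, limma adjusted p = 0.00671). Per2 differed between the same conditions by -1.46 ± 0.27 (adjusted p = 0.00671).

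Single arrays stood apart from the other 3 of ZT20 for 3 of the 50 genes looked at, where chance flags about 1 in 20, or 2.5. Nfil3 was low on replicate 2, at 8.27 against 8.95 for the nearest array, a gap that is 0.936 of the range of the group. Nrg4 was low on replicate 2 as well, at 5.73 against 5.96 (0.829 of the range, at the critical value of 0.829 for 4 arrays). Tef was high on replicate 1, at 8.89 against 8.43 (0.835 of the range).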

How the results depend on the processing

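All 11 genes kept their sign under each of the 20 alternatives, and Dbp, Fkbp5 and Nr1d2 passed in every one, Per3 and Sphk2 in 19, Cdca5, Iqgap3 and Tef in 13, Nrg4 in 11, and Cd59a and Incenp in 10. The count of genes past the threshold (11, with 5 higher and 6 lower) became 49 (26 and 23) with only the 7 arrays, 40 (27 and 13) with all arrays, 17 (8 and 9) with the mean of a gene's probe sets, 82 (43 and 39) with array background as a covariate, 104 (61 and 43) with array weights (whose estimate stopped short of its tolerance), and 6 (1 and 5) with arrays centred on their medians. Chosen after seeing the data, leaving out the ZT0 arrays gave 29 (17 and 12) and testing all probe sets 42 (14 and 28). With 1 of the 7 arrays left out it was 4 to 8 (higher 1 to 3, lower 3 to 7), fewer samples entering each. The counts stayed within 1.5 times under the other settings. The labels do not say whether replicate numbers pair the arrays. Correlations of same-numbered arrays' deviations were 0.32, 0.02 and 0.01, and those of other pairs ran from -0.38 to 0.36, which cannot decide it. The replicate block gave 10 (4 and 6). In tests between conditions, 0, 0 and 2 genes passed in limma, and without ZT20 replicate 3 or ZT8 replicate 3 the last count was 3. Genes that passed no threshold changed sign as follows, and the cause was not tested. Clock (0.02) became -0.049 with the mean of probe sets, -0.073 with array background and -0.041 with array weights, and ranged from -0.17 to 0.16 with 1 array left out. Nfil3 (0.17) ranged from -0.067 to 0.35. Pdia6 became -0.11 with the mean of probe sets and -0.59 with the set of largest variance, where Ercc1 became -0.0095. The median SE of 0.20 limits what 4 against 3 arrays can show.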

Other observations

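Genes just outside the threshold that belong to no list were looked at after their values were seen, and none of them passed. H3c4, a histone gene copied in many near-identical genes, had the higher level at ZT20 (0.87 ± 0.18 (SE), limma adjusted p = 0.0626), as did Pclaf, a partner of the replication clamp PCNA (1.16 ± 0.25, adjusted p = 0.103). Fut2, a fucosyltransferase, and Klk1, a kallikrein protease, differed in the same direction by 1.27 ± 0.28 and 0.87 ± 0.19 (adjusted p = 0.119 and 0.12). Rsad1 (-1.05 ± 0.22, adjusted p = 0.0874) and the mannosidase Man1c1 (-0.69 ± 0.16, adjusted p = 0.124) had the lower level at ZT20. Each of these 6 genes had separate groups.

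ZT8 replicate 1 had the lowest level of Aurkb's partner Incenp and of Cdca5, Iqgap3 and Kif11 among the 7 arrays, and its mean over the 27 mitosis genes (7.13) was the lowest of the 7.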
